A study of Mus musculus with 6 samples.

Results

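The genes described here encode the chaperones, disulfide isomerases, stress sensors, degradation factors and translocon subunits of the endoplasmic reticulum (ER). They were chosen by symbol as a list of 32, and all 32 of them were among the 14912 genes of the deposited table. The libraries, which read the 3' ends of transcripts, came from cultured bone marrow of wild-type C57BL/6J mice, labelled as bone marrow derived dendritic cells. In the 3 midkine samples recombinant human midkine, a cytokine that binds heparin, was present at 10 ng/ml for the last 2 days of culture, and in the 3 control samples it was not. All 6 samples were grown with FLT3 ligand (FLT3LG, 50 ng/ml), which dendritic cells need to develop, and their medium with FLT3LG was renewed on day 7. The labels give no age of the mice and no vehicle, and they do not say that replicates were separate mice or cultures. The p-values thus cover only variation among these 6 samples, which could be technical.

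Proteins destined for the cell surface, the endosomes or secretion enter the ER through the Sec61 translocon, fold there with the help of chaperones and are joined by disulfide bonds. Those that fail to fold are drawn back into the cytosol and degraded, a process called ER-associated degradation. When unfolded proteins build up, the membrane sensors IRE1 (encoded by Ern1), ATF6 and PERK (encoded by Eif2ak3) raise the transcription of chaperone and degradation genes, the unfolded protein response. In mice, the IRE1 and Xbp1 branch is known for its role in plasmacytoid and type 1 conventional dendritic cells. A gene count does not separate the spliced from the unspliced messenger RNA of Xbp1, so splicing was not measured.

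Midkine libraries held 5685055 to 6453768 reads and control libraries 5089338 to 5532055. Values are normalised reads, that is, reads divided by the authors' size factor for the library. All 6 dendritic cell markers were measured, with 1 called higher and 1 lower. Itgax was higher, at 691 to 778 normalised reads in midkine and 387 to 443 in control libraries, and Zbtb46 lower, at 565 to 578 in midkine and 785 to 807 in control libraries (named after its values were seen). Flt3, the receptor of FLT3LG, was at 572 to 596 in midkine and 599 to 669 in control libraries. Markers of other cells were measured too. The summed level of 8 stromal markers was 36240 to 39171 normalised reads in midkine and 13878 to 17182 in control libraries, with 7 called higher and 1 lower. That of 8 plasmacytoid dendritic cell markers was 1396 to 1457 in midkine and 5583 to 5860 in control libraries, with all 8 called lower, among them Siglech, at 102 ± 18.3 in midkine and 816 ± 36.3 in control libraries (mean ± SD, n = 3 each). For 6 markers of type 1 conventional dendritic cells it was 10368 to 11797 in midkine and 20098 to 23233 in control libraries, with all 6 called lower. Of 5 markers of type 2 conventional dendritic cells 3 were called higher and 0 lower by limma and by edgeR, and 4 higher and 0 lower at an unadjusted p under 0.05, with sums of 3502 to 3991 in midkine and 2701 to 2885 in control libraries. Of 6 macrophage markers 3 were called higher and 2 lower, with sums of 2301 to 2409 in midkine and 1917 to 2702 in control libraries. Of 6 neutrophil markers 3 were too low to test and 2 were called lower, with sums of 34.8 to 60.8 in midkine and 460 to 577.5 in control libraries. Of the 10 B and plasma cell markers, 3 lay below the level needed for the test, 1 was called higher and 1 lower. The sum of all 10 was 598 to 1048 in midkine and 1075 to 1570 in control libraries. Ighm, the lower one, was at 418 ± 101 in midkine and 939 ± 116 in control libraries. Sdc1, the higher one, was at 162 ± 12.7 in midkine and 98.5 ± 5.02 in control libraries (both named after their values were seen). Mitochondrial ribosomal RNA took 18.1% to 20.9% of the reads in midkine and 9.33% to 9.86% in control libraries. The part of these differences in the results below was not tested. In bulk samples, fewer cells of a type and less RNA per cell cannot be told apart.

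Several ER genes carry a known control element in their promoter, and the copies found in 10 genes of the list are printed below. The classical ER stress element is CCAAT followed after 9 bases by CCACG, and a shorter form is ATTGG followed after 1 base by CCACG. RefSeq promoters (GRCm38.p6, 250 bases before to 50 after the gene start) were given for 26 of the 32 genes, Derl2 with more than one, and Ero1l was matched through its RefSeq synonym. Atf6, Derl1, Hyou1, Manf, Sec61a1 and Ssr2 had no entry. On both strands, 8 of the 27 windows (29.6%) held the longer element and 2 of 27 (7.41%) the shorter. Among all 32851 windows, 39 (0.119%) held the longer and 12 (0.0365%) the shorter. The XBP1 and ATF6 element TGACGTGG was in none of the 27 windows and in 222 (0.676%) of all. The sites are given on the strand on which the element reads, with its fixed letters in capitals, and none overlaps another. They come in the order of the genes' log2 fold change, midkine over control.
Hspa5, 65 bases before the start, chr2:34772025-34772043, plus strand: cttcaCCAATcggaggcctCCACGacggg
Calr, 162 bases before the start, chr8:84847075-84847093, plus strand: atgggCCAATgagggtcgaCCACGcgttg
Herpud1, 52 bases before the start, chr8:94386377-94386387, plus strand: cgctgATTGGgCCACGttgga
Hsp90b1, 212 bases before the start, chr10:86705638-86705656, minus strand: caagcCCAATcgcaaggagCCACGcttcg
Hsp90b1, 107 bases before the start, chr10:86705533-86705551, plus strand: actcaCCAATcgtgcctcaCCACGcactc
Pdia6, 98 bases before the start, chr12:17266491-17266509, plus strand: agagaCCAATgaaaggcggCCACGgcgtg
Canx, 145 bases before the start, chr11:50325800-50325818, minus strand: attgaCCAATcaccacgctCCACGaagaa
Creld2, 126 bases before the start, chr15:88819520-88819538, minus strand: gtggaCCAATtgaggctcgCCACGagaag
Dnajb11, 7 bases after the start, chr16:22857852-22857862, plus strand: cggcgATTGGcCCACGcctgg
Dnajc3, 105 bases before the start, chr14:118937827-118937845, plus strand: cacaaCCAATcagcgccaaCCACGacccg
Syvn1, 44 bases before the start, chr19:6046532-6046550, plus strand: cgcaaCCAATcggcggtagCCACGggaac

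The 5 copies at Hspa5, Calr, Herpud1 and Hsp90b1 stand in the promoters of genes called higher with midkine, and the other 6 in those of genes not called. Distances are from the RefSeq gene start to the first base of the element in the gene's own direction. The coordinates give the element without its flanks. Gene spans given below are from GENCODE vM21, whose starts can differ from those of RefSeq. That of Hspa5 begins at 34771970, so its element at 34772025 lies inside the GENCODE span. Of the 10 genes with either element, 4 were called higher by limma, 0 lower and 6 not called, at a median log2 fold change of 0.15. Of all genes tested 20.9% were called higher and 21.8% lower, at the same adjusted p under 0.05. At an unadjusted p under 0.05 the counts for the 10 genes were 5 higher and 0 lower. The share of all genes at that looser threshold is not given here. Of the 16 genes with a promoter and neither element, 4 were called higher, 3 lower and 9 not called, at a median of 0.05. Ero1l, the gene with the largest change of the list, was among these 16. A match describes the letters of the window and is not a measured binding site. Only exact letters were searched, so near copies of an element, in Hspa5 or in these 16 genes, were not counted. The whole window of Hspa5, chr2:34771840-34772139 on the plus strand, is shown as the promoter of the gene with the most reads of the list, with the fixed letters of its element in capitals.
Hspa5 promoter: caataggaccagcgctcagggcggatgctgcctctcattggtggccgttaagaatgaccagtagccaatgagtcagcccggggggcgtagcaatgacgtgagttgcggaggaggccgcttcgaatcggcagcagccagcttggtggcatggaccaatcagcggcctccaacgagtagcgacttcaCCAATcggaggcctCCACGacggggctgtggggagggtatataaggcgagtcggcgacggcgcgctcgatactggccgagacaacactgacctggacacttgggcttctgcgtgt

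**Figure D1:**
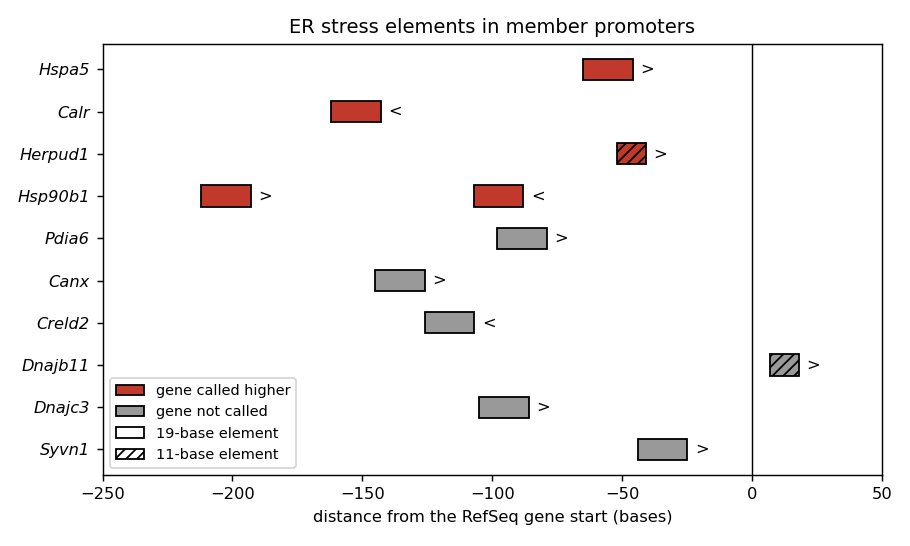
Position of the ER stress elements in the promoters of 10 genes, as the distance from the RefSeq gene start in bases (0 is the start), with the genes ordered by log2 fold change. Solid bars are the element with CCAAT, hatched bars the shorter one, red marks genes called higher with midkine and grey genes not called, and the arrowheads give the strand of the element relative to the gene. Hsp90b1 holds 2 copies, and Dnajb11 is the gene of this plot whose copy lies past the start.

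With midkine, 10 of the 32 genes were called higher and 3 lower, and 19 were not called (limma, adjusted p under 0.05 over all 11844 genes tested). All 32 passed the filter on low values. Over all genes tested, 20.9% were called higher and 21.8% lower, 42.7% in all, where the list's shares were 31.2% higher and 9.38% lower. Its median log2 fold change was 0.10, beside -0.0087 over all genes tested. Ero1l, Hspa5, Calr, Ern1, Derl1, Herpud1, Hyou1, Sel1l, Hsp90b1 and P4hb were higher, and Selenos, Sdf2l1 and Selenok lower. The changes were small: 1 gene, Ero1l, changed at least 2-fold. The replicate spread was small too, with a median coefficient of variation over the list of 6.51% in midkine and 5.10% in control libraries. All midkine values lay above all control values for 13 genes and below them for 5, where 25.1% of all genes tested lay above and 26.2% below, 51.3% in all. In the list, 6 genes did not overlap between groups and were still not called.

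**Figure D2:**
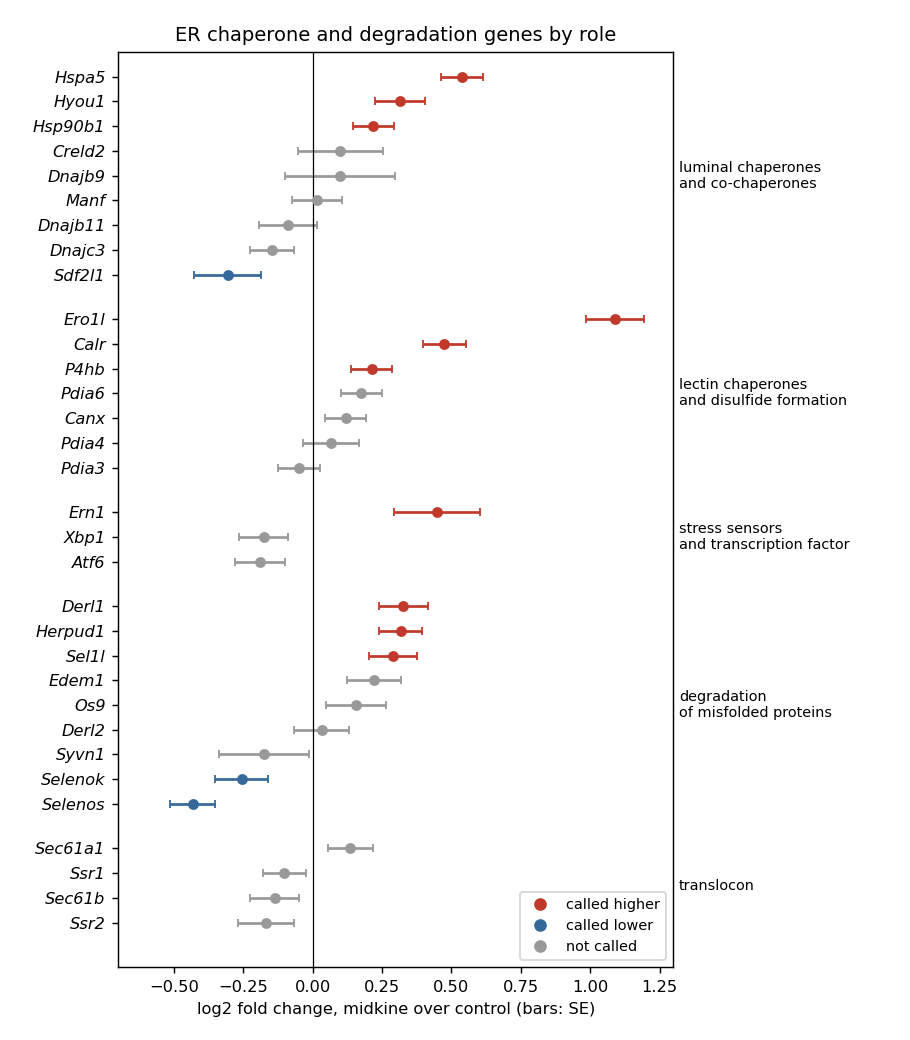
Log2 fold change, midkine over control, of the 32 genes grouped by role, from limma on log2(value + 1) with 3 libraries per group. Points are estimates and bars their SE, red marks genes called higher, blue genes called lower and grey genes not called. Ero1l stands apart at 1.09, and all 4 translocon genes are grey.

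The luminal chaperones of the Hsp70 and Hsp90 families were higher with midkine, while most of their co-chaperones were not called. Hspa5 encodes BiP, the Hsp70 of the ER, which binds unfolded chains and holds the stress sensors inactive. It lies on chromosome 2 from 34771970 to 34777547 (GRCm38, GENCODE vM21, protein coding). Hspa5 had 15069, 14328 and 14372 normalised reads in midkine libraries, against 10154, 10206 and 9787 in control libraries. Every midkine value was above every control value, by 1.45-fold between the means (log2 fold change 0.54, SE 0.08, limma adjusted p = 2.73e-06), and the call held in all 18 alternatives. The log2 fold change of Hspa5 was 0.26 with quantile normalization and 0.28 with scaling to total reads. Hspa5 took 29.7% to 30.0% of the reads of the 32 genes in midkine and 23.9% to 25.2% in control libraries.

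Hyou1, whose product exchanges the nucleotide of BiP, had 1052, 1175 and 1046 normalised reads in midkine libraries, against 1027, 801 and 817 in control libraries. Control replicate 1 lay close to the midkine values, and the groups did not overlap (log2 fold change 0.31, SE 0.09, limma adjusted p = 0.00709). Without control replicate 2 the log2 fold change was 0.25 and without control replicate 3 it was 0.26, neither called, and with scaling to total reads it was 0.06 and not called. Hsp90b1 encodes GRP94, the Hsp90 of the ER, on which Toll-like receptors and integrins depend for folding. It had 6075, 5493 and 5442 normalised reads in midkine libraries, against 4996, 4770 and 4833 in control libraries. Its rise was small but without overlap (log2 fold change 0.22, SE 0.07, limma adjusted p = 0.0200). The call was lost without midkine replicate 1 (0.17), control replicate 2 (0.20) or control replicate 3 (0.21), and the sign turned with quantile normalization (-0.05) and with scaling to total reads (-0.04). Exons of Hsp90b1 overlap those of the tested Gm15344 on the same strand and of 1810014B01Rik on the other.

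Sdf2l1, a partner of the J-domain co-chaperones, went the other way. It had 270, 184 and 202 normalised reads in midkine libraries, against 269, 276 and 256 in control libraries. Midkine replicate 1 lay among the control values, so the groups overlapped, and Sdf2l1 was called lower by a small margin (log2 fold change -0.31, SE 0.12, limma adjusted p = 0.0435). It was called in 9 of 18 alternatives. The log2 fold change was -0.19 without midkine replicate 2, -0.26 without midkine replicate 3, and -0.30, -0.28 and -0.34 without control replicates 1, 2 and 3, none of them called.

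The J-domain co-chaperones, which deliver clients to BiP, were not called. Dnajc3, which also inhibits PERK, had 744, 736 and 711 normalised reads in midkine libraries, against 851, 789 and 787 in control libraries, all below control but not called (log2 fold change -0.15, limma adjusted p = 0.145). Dnajb11 was at 307 ± 40.5 in midkine and 325 ± 6.59 in control libraries (mean ± SD, n = 3 each; log2 fold change -0.09). Dnajb9, which represses IRE1 and is a known target of XBP1, was at 68.6 ± 6.48 in midkine and 66.2 ± 20.4 in control libraries (log2 fold change 0.10). Its control libraries ranged over 42.7 to 79.3, the widest relative spread of the list. Manf, a secreted factor that binds BiP (0.01), and Creld2, a stress-induced ER protein (0.10), moved by less than their SE on the log2 scale, 0.09 and 0.15. Manf shares exonic sequence with Rbm15b on the same strand and with Dcaf1 on the other.

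Among the genes of disulfide formation Ero1l changed most of the whole list. Ero1l encodes the oxidase that passes electrons from protein disulfide isomerase to oxygen, and it is known to be induced by hypoxia and by CHOP, the factor encoded by Ddit3. It lies on chromosome 14 from 45283087 to 45318771. Ero1l had 389, 435 and 424 normalised reads in midkine libraries, against 173, 207 and 206 in control libraries. The lowest midkine value was well above the highest control value, and the means differed 2.13-fold (log2 fold change 1.09, SE 0.10, limma adjusted p = 4e-09). The log2 fold change was 0.83 to 1.14 over the 18 alternatives and called in each.

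The isomerases on which this oxidase acts moved little. P4hb, which encodes protein disulfide isomerase itself, had 1321, 1372 and 1356 normalised reads in midkine libraries, against 1170, 1161 and 1161 in control libraries. The groups were tight and apart, and P4hb was called higher (log2 fold change 0.21, SE 0.07, limma adjusted p = 0.0227). Its log2 fold change stayed at 0.21 without midkine replicate 3, control replicate 2 or control replicate 3 but was not called in these, and it was -0.05 with scaling to total reads. Pdia6, which limits the activity of IRE1, had 2871, 2899 and 2942 normalised reads in midkine libraries, against 2782, 2473 and 2470 in control libraries, without overlap and not called (log2 fold change 0.18, limma adjusted p = 0.0596). Without control replicate 1 it was called at 0.23. Pdia4 (0.07) and Pdia3 (-0.05), the partner of the lectin chaperones and a part of the class I peptide-loading complex, had overlapping groups. Exons of Pdia3 overlap those of Catsper2 on the other strand. The reads of Ero1l per read of P4hb, a ratio that no scaling between libraries alters, were 0.294 to 0.317 in midkine and 0.148 to 0.178 in control libraries.

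Calr and Canx encode calreticulin and calnexin, lectin chaperones that hold glycoproteins until they are folded, the first in the lumen and the other in the membrane. Calr had 4959, 4904 and 4374 normalised reads in midkine libraries, against 3333, 3304 and 3595 in control libraries. The groups were apart, by 1.39-fold between the means (log2 fold change 0.48, SE 0.08, limma adjusted p = 1.48e-05), with the call held in all 18 alternatives. The log2 fold change of Calr was 0.26 with quantile normalization and 0.22 with scaling to total reads. The annotation lists a processed copy, Calr-ps, that could share its reads. Canx had 3021, 2747 and 2825 normalised reads in midkine libraries, against 2684, 2548 and 2676 in control libraries, above control in each case but not called (log2 fold change 0.12, SE 0.07, limma adjusted p = 0.199). The reads of Calr per read of Canx were 1.55 to 1.78 in midkine and 1.24 to 1.34 in control libraries.

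**Figure D3:**
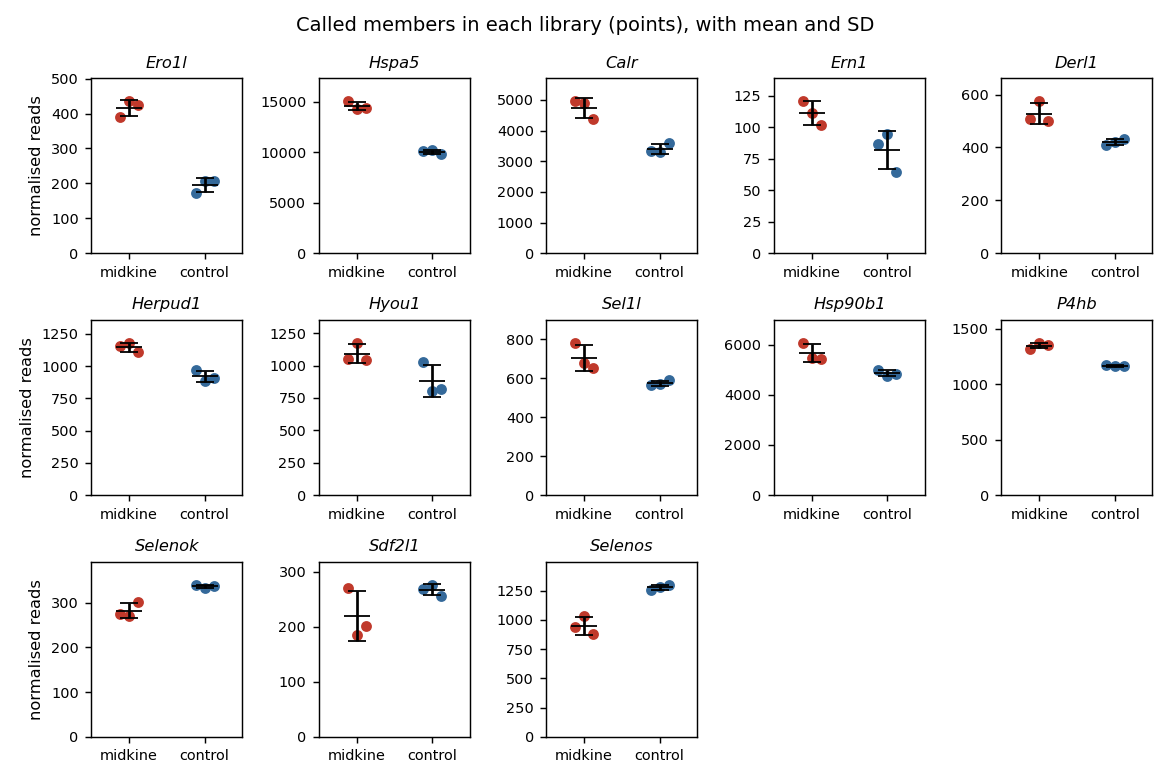
Normalised reads of the 13 called genes in each library, midkine in red and control in blue, with the mean and SD (n = 3 per group) in black and each axis starting at 0. Genes run from the largest rise, Ero1l, to the deepest fall, Selenos; in Sdf2l1 midkine replicate 1 lies among the control libraries.

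Of the sensors and their factor, Ern1 was higher with midkine and Atf6 and Xbp1 were not called. Ern1 encodes IRE1, the sensor that splices Xbp1 messenger RNA and degrades others. It had 121, 111 and 102 normalised reads in midkine libraries, against 86.9, 94.2 and 64.6 in control libraries. The groups were close to each other but did not overlap (log2 fold change 0.45, SE 0.15, limma adjusted p = 0.0213). Ern1 was not called without midkine replicate 1 (0.39), without control replicate 3 (0.29) or in DESeq2 (0.44). Xbp1, the factor downstream of IRE1, had 553, 556 and 539 normalised reads in midkine libraries, against 698, 573 and 599 in control libraries. All midkine values were below control, and the difference was not called (log2 fold change -0.18, SE 0.09, limma adjusted p = 0.113). Atf6 had 612, 489 and 600 normalised reads in midkine libraries, against 659, 640 and 633 in control libraries, again below control and not called (log2 fold change -0.19, SE 0.09, limma adjusted p = 0.0976). Xbp1 and Atf6 were called lower with scaling to total reads (-0.43 and -0.45). The reads of Ern1 per read of Xbp1 were 0.189 to 0.218 in midkine and 0.108 to 0.164 in control libraries. Plasmacytoid markers, whose summed level was 1422 ± 31.3 in midkine and 5679 ± 157 in control libraries, moved beside Xbp1, and their part in it was not tested.

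Genes of ER-associated degradation changed in both directions: Herpud1, Derl1 and Sel1l were higher with midkine, and Selenos and Selenok lower. Herpud1, a scaffold of the ubiquitin ligase complex and a strongly induced stress gene, had 1152, 1178 and 1109 normalised reads in midkine libraries, against 966, 886 and 908 in control libraries. Derl1, a channel component, had 508, 575 and 501 in midkine libraries, against 409, 420 and 431 in control libraries. Neither gene's groups overlapped, with log2 fold changes of 0.32 (SE 0.08, limma adjusted p = 0.00174) for Herpud1 and 0.33 (SE 0.09, limma adjusted p = 0.00445) for Derl1. Each was called in 17 of 18 alternatives, all but scaling to total reads, which gave 0.06 for Herpud1 and 0.07 for Derl1. Sel1l, the adaptor that brings substrates to the ligase, had 781, 677 and 654 normalised reads in midkine libraries, against 564, 571 and 589 in control libraries. Midkine replicate 1 was the highest, and without it the log2 fold change of Sel1l was 0.21 and not called, against 0.29 (SE 0.09, limma adjusted p = 0.0091) with all libraries.

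Selenos and Selenok encode selenoproteins of the ER membrane that bind each other and the p97 segregase,. Selenos, on chromosome 7 from 66079649 to 66089405, had 935, 1035 and 880 normalised reads in midkine libraries, against 1257, 1282 and 1300 in control libraries. Its highest midkine value was well below its lowest control value (log2 fold change -0.43, SE 0.08, limma adjusted p = 9.14e-05), and Selenos was called in all 18 alternatives. Selenok had 275, 271 and 301 normalised reads in midkine libraries, against 340, 332 and 338 in control libraries. The groups were apart, and Selenok was called (log2 fold change -0.25, SE 0.10, limma adjusted p = 0.0342), but in 10 of 18 alternatives only. It was not called without midkine replicate 1 (-0.24) or 2 (-0.23), or without control replicate 1 (-0.25), 2 (-0.26) or 3 (-0.25). The annotation lists 6 processed copies of Selenok that could share its reads.

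The other degradation genes were not called. Syvn1, the ubiquitin ligase HRD1, was at 71.2 ± 3.03 in midkine and 81.3 ± 13.6 in control libraries (log2 fold change -0.18, SE 0.16), and its exons overlap those of Mrpl49 on the other strand. Edem1, which selects mannose-trimmed glycoproteins, was at 317 ± 12.6 in midkine and 272 ± 14.9 in control libraries, without overlap (log2 fold change 0.22, limma adjusted p = 0.0690). The lectin gene Os9 had 575, 397 and 502 normalised reads in midkine libraries, against 407, 439 and 464 in control libraries. Midkine replicate 2 of Os9 lay below all control values, and without it Os9 was called at 0.30, against 0.15 and not called with it. Derl2, a relative of Derl1 with exons that overlap those of Mis12 on the other strand, was at 285 ± 19.2 in midkine and 278 ± 7.42 in control libraries (log2 fold change 0.03). The reads of Derl1 per read of Derl2 were 1.78 to 1.89 in midkine and 1.48 to 1.54 in control libraries. Those of Sel1l per read of Syvn1 were 8.88 to 10.8 in midkine and 6.31 to 8.97 in control libraries, an overlap.

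None of the 4 translocon genes was called by limma or edgeR, or had an unadjusted p under 0.05 in limma. Sec61a1, which encodes the pore, was at 1693 ± 89.8 in midkine and 1544.5 ± 155 in control libraries (log2 fold change 0.14). Sec61b, a small subunit of the pore, was at 611 ± 65.4 in midkine and 669 ± 18.3 in control libraries (-0.14). Ssr1 (-0.10) and Ssr2 (-0.17), subunits of the translocon-associated complex, also had overlapping groups. With scaling to total reads Sec61b, Ssr1 and Ssr2 were called lower.

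Shares among the 32 genes do not depend on the scaling between libraries. The luminal chaperones and co-chaperones took 47.7% to 48.4% of the list's reads in midkine and 42.9% to 44.1% in control libraries. The translocon took 7.60% to 8.25% in midkine and 9.11% to 9.92% in control libraries. Degradation factors took 9.61% to 10.02% in midkine and 10.9% to 11.3% in control libraries, and sensors with Xbp1 2.40% to 2.59% in midkine and 3.16% to 3.44% in control libraries. The groups did not overlap in these 4 shares, and they overlapped in that of lectin chaperones and disulfide formation. A share falls where another gene of the list takes more, and the share of Hspa5 alone was 29.7% to 30.0% in midkine and 23.9% to 25.2% in control libraries. With the authors' size factors the summed level of the degradation factors was not lower, at 4605 to 4888 normalised reads in midkine and 4560 to 4653 in control libraries. Unlike the shares, this sum depends on the scaling. With scaling to total reads 0 of the 9 degradation factors were called higher and 3 lower. With Hspa5 left out of the total, a choice made after seeing the data, the share of the other luminal chaperones was 25.3% to 26.3% in midkine and 25.0% to 26.3% in control libraries, an overlap. That of lectin chaperones and disulfide formation was then 45.3% to 45.5% in midkine and 42.0% to 43.6% in control libraries, without overlap. Degradation factors were then at 13.7% to 14.2% in midkine and 14.4% to 15.0% in control libraries. Hspa5 reads per Selenos read, the genes with opposite calls that held throughout, were 13.8 to 16.3 in midkine and 7.53 to 8.08 in control libraries.

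The direction of the smaller changes rested on the scaling. The 32 genes together took 0.775% to 0.816% of the reads in midkine and 0.773% to 0.822% in control libraries, an overlap. With ribosomal RNA rows left out of the total they took 1.10% to 1.13% in midkine and 0.977% to 1.00% in control libraries. In the deposited values their sum was 47933 to 50337 normalised reads in midkine and 40583 to 41950 in control libraries. Scaling to total reads shifted the median log2 fold change of all genes tested to -0.27 and gave 3 of the 32 genes higher and 13 lower, where 10.8% and 40.7% of all genes were called higher and lower. Scaling to total reads without ribosomal RNA gave a median of all genes of -0.09, and 7 of the 32 higher and 6 lower, where 17.1% and 26.8% of all genes were. Relative to the median of all genes, the list's median was 0.11 with each of these scalings and with the deposited size factors. Ero1l, Hspa5 and Calr were called higher, and Selenos, Sdf2l1 and Selenok lower, under each of the 3. Sel1l (0.03) and Ern1 (0.19) stayed above 0 with scaling to total reads but were not called. Without ribosomal RNA in the totals the calls of Hsp90b1 (0.14), P4hb (0.14) and Ern1 (0.37) were lost, and Dnajc3 (-0.22), Xbp1 (-0.25) and Atf6 (-0.27) were called lower. Without a variance trend in limma, Ern1, Hyou1, Sel1l, Hsp90b1, P4hb, Sdf2l1 and Selenok kept their values and lost their calls.

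**Figure D4:**
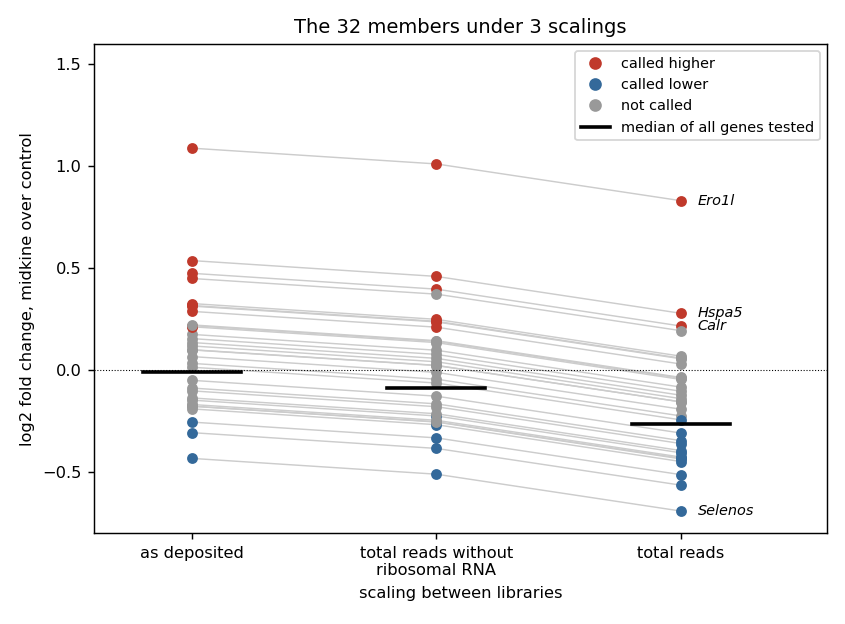
Log2 fold change of the 32 genes, midkine over control, with the authors' size factors, with scaling to total reads without ribosomal RNA rows, and with scaling to total reads. Each point is a gene and thin lines join a gene's values, red marks genes called higher, blue called lower and grey not called, and the black bar is the median of all genes tested (-0.0087, -0.09 and -0.27). All genes shift down together; Ero1l, Hspa5 and Calr stay red, and Selenos, Sdf2l1 and Selenok stay blue.

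Other genes of the pathway were counted from lists of 10 kinds, in which 135 genes were tested. Among them 40 (29.6%) were called higher and 17 (12.6%) lower, beside 20.9% and 21.8% of all genes tested, and their median log2 fold change was 0.08. With scaling to total reads 21 were called higher and 54 lower, at a median of -0.18, and without ribosomal RNA in the totals 31 and 28, so the balance of the tally turned with the scaling. The list of the PERK arm held 12 tested genes, 10 called higher and 1 called lower, and its median log2 fold change was 1.21. Eif2ak3, which encodes the sensor PERK, was at 194 ± 13.2 normalised reads in midkine and 146 ± 13.4 in control libraries (log2 fold change 0.41, SE 0.12, limma adjusted p = 0.00664), but was not called with scaling to total reads (0.15). Atf4, the factor translated when PERK is active, was at 3509 ± 84.4 in midkine and 2343 ± 208 in control libraries (0.59). Its target Ddit3, which encodes CHOP, had 528, 576 and 538 normalised reads in midkine libraries, against 93.5, 142 and 154 in control libraries. The groups of Ddit3 were far apart, at a log2 fold change of 2.10 (SE 0.13, limma adjusted p = 2.24e-12). Trib3, a pseudokinase gene induced by CHOP, was at 262 ± 7.05 in midkine and 46.6 ± 4.56 in control libraries (2.47). Atf4, Ddit3 and Trib3 are also induced by amino acid shortage and other stresses. Dnajb1, a cytosolic co-chaperone gene that was placed in this list, fell (-0.44).

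Among further co-chaperones and prolyl isomerases 8 of 18 genes (44.4%) were higher and 1 (5.56%) lower, beside 20.9% and 21.8% of all genes tested. With scaling to total reads 4 of them were higher and 4 lower. Serpinh1 (0.71), the collagen chaperone, was at 1179 ± 120 normalised reads in midkine and 718 ± 49.8 in control libraries, and Fkbp10 (0.94), which acts on collagen too, at 350 ± 19.7 in midkine and 184 ± 32.5 in control libraries. Stromal markers moved beside them: Col1a1 was at 11177 ± 1633 in midkine and 3485 ± 435 in control libraries, and the part of stroma in these rises was not tested. Dnajc25 was lower (-0.52). Of 14 further disulfide isomerases and oxidases 3 were higher and 3 lower (21.4% each, near the shares of all genes tested). Qsox1 (0.90), a secreted sulfhydryl oxidase, and Ero1lb (0.49; 0.23 and not called with scaling to total reads), the paralogue of Ero1l, were higher, and Pdia5 (-1.03) and the membrane-bound Tmx1 (-0.35) lower.

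The glycoprotein cycle had 3 of 11 genes (27.3%) higher and 0 lower by limma, beside 20.9% and 21.8% of all genes tested, and the same counts by edgeR. At an unadjusted p under 0.05 it had 5 higher and 1 lower, and the share of all genes at that looser threshold is not given. Lman1 (0.66) and Mcfd2 (0.73), whose products form a cargo receptor that leaves the ER, were among the 3. Of 21 further degradation factors 4 were higher and 4 lower (near the shares of all genes tested, 20.9% and 21.8%), at a median of -0.12, and with scaling to total reads 1 was higher and 13 lower. Fam8a1 (0.77), a cofactor of HRD1, and Aup1 (0.33; 0.07 and not called with scaling to total reads) were higher, and Ubxn8 (-0.71) and the ubiquitin-conjugating enzyme gene Ube2j2 (-0.31) lower. Ube2j2 was not called without midkine replicate 1 (-0.26) or control replicate 1 (-0.19). Of 20 genes for targeting, translocation and signal peptidase 6 (30%) were higher and 4 (20%) lower, beside 20.9% and 21.8% of all genes tested. Sec61g (0.49), the third subunit of the pore, and Sec61a2 (1.24), at 42.2 ± 1.80 in midkine and 18.0 ± 6.34 in control libraries, were higher, and Tram1 (-0.41) and Spcs1 (-0.35) lower.

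The oligosaccharyltransferase, which attaches sugar chains to entering proteins, had 2 of 12 genes higher and 2 lower. These were 16.7% each, beside 20.9% and 21.8% of all genes tested. Krtcap2 (0.76) and Rpn2 (0.27) were higher, and Tusc3 (-0.59) and Magt1 (-0.26), alternative subunits of the complex, lower. Rpn2 was not called with scaling to total reads (0.0083), without midkine replicate 2 (0.19) or control replicate 1 (0.21), nor was Magt1 without midkine replicate 3 (-0.24), control replicate 2 (-0.23) or control replicate 3 (-0.22). Of 11 genes of the COPII coat, which carries cargo out of the ER, Sec23a (0.66) and Sec16a (0.41) were higher (18.2%, beside 20.9% of all genes tested). None of the 11 was lower by limma, by edgeR or at an unadjusted p under 0.05. Sec16a was not called with scaling to total reads (0.15), without midkine replicate 1 (0.40), midkine replicate 3 (0.28) or control replicate 3 (0.37). Of 6 receptors for the degradation of ER by autophagy Retreg1 (0.37) was higher and Calcoco1 (-0.44) lower (16.7% each, below the shares of all genes tested). Retreg1 was not called with scaling to total reads (0.11), without midkine replicate 1 (0.31), midkine replicate 3 (0.33) or control replicate 3 (0.31), nor was Calcoco1 without control replicate 2 (-0.35). Among 10 further membrane stress factors and proteases 1 was higher and 1 lower (10% each, below the shares of all genes tested). Creb3l2 (0.67) was the higher one. Bloc1s1, a known substrate of the IRE1 nuclease in mice, was lower, at 39.4, 22.0 and 26.2 normalised reads in midkine and 48.2, 69.0 and 54.2 in control libraries (log2 fold change -0.97, SE 0.23, limma adjusted p = 0.00119). Atf6b, the relative of Atf6, was at 466 ± 59.0 in midkine and 539.5 ± 74.7 in control libraries and was not called (-0.21).

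**Figure D5:**
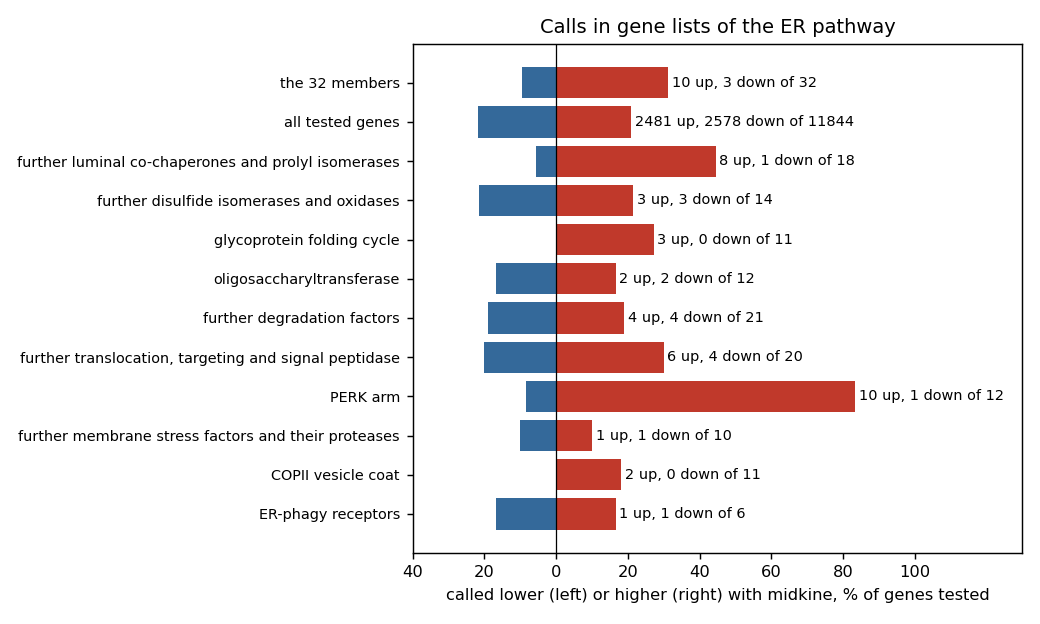
Share of the genes tested that were called higher (right, red) or lower (left, blue) with midkine, in % of the genes of each list, with the counts printed beside the bars. The bar of all genes tested ends at 20.9% higher and 21.8% lower, that of the 32 genes at 31.2% and 9.38%.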

How the data were processed

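The members and lists were chosen with earlier results of these data known. RNA of 6 samples, 500 ng each, went into forward QuantSeq libraries for a HiSeq, per the labels' protocols, at a mean RNA integrity number of 8 (5 to 10). Per the submitters' processing notes the tools were HTSeq, DESeq2, TopHat2 2.0.10, SAMtools 0.1.19, Bowtie 1.0.0 and FastQC 0.11.0, with the builds GRCm38 and mm10. The sources used here give neither the annotation nor the strand setting.

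The authors deposited a signal table of 14912 genes, reads divided by a size factor per library. Dividing by the value of 1 read (0.916 to 1.13) gave whole reads for 100% of values within 1e-06 reads. In midkine replicate 3 that value is 1.01, too near 1 for an automatic check, but only 1.63% of its deposited values are within 0.001 of being whole, so they are scaled. Replicates differed by more than counting noise (chi-square 2.42 to 11.7 for each degree of freedom).

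Genes with a mean value of at least 10 (11844) were tested with limma 3.58.1 (R 4.3.3; eBayes with trend) on log2(value + 1), which understates changes of low genes. P-values were adjusted by the Benjamini-Hochberg method and called under 0.05. Groups and replicate numbers came from the titles, and no block was used. Lists were counted without a list test. The named genes are all members, up to 2 called genes per direction in each other list (those with the smallest p), Eif2ak3, Atf4, Ddit3, Atf6b, Bloc1s1 and the markers Itgax, Flt3, Siglech and Col1a1. Protein features were planned and not analysed here. Alternatives were other pseudocounts, filters and scalings, no trend, a block, leaving out each library, and edgeR 4.0.16 (2585 genes higher, 2572 lower) and DESeq2 1.42.0 on the recovered reads. The tests were checked on simulated data.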

Additional observations from a re-analysis of the deposited data

How the results depend on the processing

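Of the 13 called genes 4 kept direction and call in all 18 refits: Ero1l, Hspa5, Calr and Selenos. Over all genes, scaling to total reads gave 1278 higher and 4824 lower, against 2481 and 2578 with the deposited factors, and the list's median was -0.16. The counts of members called, 10 higher and 3 lower, became 3 and 13 with scaling to total reads. Without ribosomal RNA in the totals 7 were higher and 6 lower (2024 and 3179 of all genes). With quantile normalization it was 10 and 1 (2356 and 2583 of all genes), and with DESeq2 9 and 1 (2067 and 2021). Without the variance trend 5 members were higher and 1 lower (2121 and 2056 of all genes). Leaving out each library gave 6 to 11 members higher and 1 to 2 lower, where 2133 to 2301 of all genes were higher and 2124 to 2354 lower. The cause of these moves was not tested. Signs turned as follows. With scaling to total reads the log2 fold changes were -0.14 for Canx, -0.19 for Pdia4, -0.083 for Pdia6, -0.045 for P4hb, -0.040 for Hsp90b1, -0.16 for Dnajb9, -0.035 for Edem1, -0.22 for Derl2, -0.24 for Manf, -0.16 for Creld2, -0.12 for Sec61a1 and -0.10 for Os9. Without ribosomal RNA in the totals they were -0.011 for Pdia4, -0.044 for Derl2 and -0.063 for Manf, and with quantile normalization -0.053 for Hsp90b1. Leaving out each library gave ranges that crossed 0 for Dnajb11 (-0.16 to 0.023), Derl2 (-0.018 to 0.077), Manf (-0.054 to 0.091), Pdia4 (-0.016 to 0.16), Creld2 (-0.070 to 0.20) and Dnajb9 (-0.18 to 0.25), none of them called. The replicate block, a pairing by the titles' numbers, called 10 members higher and 3 lower and 2519 and 2641 of all genes. Over all genes tested, deviations of same-numbered libraries correlated at -0.010, 0.029 and -0.058. Igkc and Jchain, B and plasma cell markers named after their values were seen, did vary alike. Igkc had 188, 15.6 and 67.6 in midkine and 236, 22.4 and 59.4 in control replicates 1 to 3. Jchain had 55.2, 5.50 and 13.1 in midkine and 74.6, 2.80 and 17.7 in control replicates 1 to 3. A shared source of same-numbered libraries was not tested. Counts per library limit the low genes: the scarcest gene of the list had 205 reads in the midkine and 207 in the control libraries together.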
